A study of Homo sapiens with 6 samples.

Results

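Aminoacyl-tRNA synthetases, the enzymes that load each transfer RNA (tRNA) with its amino acid, were followed through the response of human hepatic stellate cells to TGF-β1. The genes were chosen by symbol and not by a rule on their values, though with earlier results of these data known. They were 38 of the 58735 genes in the count table, all of them found under the older symbols that the table uses (TARS for TARS1, and so on). They are 20 genes for cytosolic synthetases, 16 genes for mitochondrial synthetases, whose names end in 2, and the genes of the scaffold proteins AIMP1 and AIMP2. All 38 passed the filter on low counts, which left 17215 genes to test.

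A synthetase recognises 1 amino acid and the tRNAs that belong to it, and the charged tRNA then goes to the ribosome. Translation in the cytosol and translation inside mitochondria use separate sets of synthetases, encoded in most cases by different nuclear genes, while GARS and KARS each supply both compartments from a single gene. In the cytosol several synthetases are held in a multi-synthetase complex on the scaffold proteins, and the others work outside it. Transcription of many cytosolic synthetase genes is known to be raised by ATF4, the transcription factor of the amino acid response.

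The libraries came from LX-2, an established line derived from human hepatic stellate cells, the cells that form scar matrix in the liver. All 6 libraries, labelled wild type, carried small interfering RNA (siRNA) to NSUN2, an RNA methyltransferase. In 3 of them TGF-β1, the cytokine that drives stellate cell activation, was added at 5 ng/ml for 24 hours, starting 48 hours after transfection; the other 3 had no TGF-β1. The design text of the series names NAT10 as well as NSUN2 as the siRNA target, and cells without siRNA were not analysed here, so the values describe TGF-β1 in siRNA-treated cells only. Whether the replicates, biological ones per the labels, came from separate cultures is not said, and the p-values measure the spread between these libraries, which may be technical.

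Library totals were 25828504 to 29978361 counts with TGF-β1 and 26957170 to 30034762 without. NSUN2 itself was at 100.5 ± 3.07 CPM (counts scaled to a common library size) with TGF-β1 and at 82.9 ± 1.47 CPM without (SD, n = 3 each). Among 12 stellate cell or mesenchymal markers, 10 averaged at least 1 CPM and summed to 7467 to 8164 CPM with TGF-β1 and 3695 to 3756 CPM without, but LRAT, the retinol-esterifying enzyme of quiescent stellate cells, had 0 counts and the muscle filament gene DES averaged 0.0760 CPM with TGF-β1 and 0.0640 CPM without. The sums were carried largely by the collagen gene COL1A1, at 3993 CPM with TGF-β1 and 1418 CPM without; ACTA2, smooth muscle actin and the usual sign of stellate cell activation, was lower, at 4.29 ± 0.465 CPM with TGF-β1 and 7.15 ± 0.556 CPM without (SD, n = 3 each; edgeR adjusted p = 1.71e-04), and RGS5 did not pass the test (-0.05, adjusted p = 0.913). Of the markers of hepatocytes, macrophages, endothelium and biliary epithelium, 1 of 7, 1 of 5, 1 of 5 and 2 of 5 averaged at least 1 CPM. Their summed levels with TGF-β1 against none were 21.3 to 23.2 against 23.6 to 27.4 CPM, 12.4 to 12.7 against 3.93 to 5.64 CPM, 35.8 to 39.8 against 19.7 to 25.4 CPM, and 56.8 to 58.5 against 71.0 to 72.8 CPM; their part in the results was not tested.

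Many cytosolic synthetase transcripts rose modestly with TGF-β1, whereas few mitochondrial ones passed the test in either direction. Of the 20 cytosolic genes, 14 rose, 1 fell and 5 did not pass the test (edgeR, two-sided quasi-likelihood test; p adjusted over all tested genes after Benjamini and Hochberg, threshold 0.05), against a background of 20.2% of all tested genes higher and 18.7% lower. Of the 16 mitochondrial genes, 1 rose, 1 fell and 14 did not pass, 10 of the 16 having a positive fold change. Over all 38 genes 16 rose and 2 fell, against 38.9% of tested genes called in either direction. The CPM of the groups did not overlap, with TGF-β1 higher, in 17 of 20 cytosolic and 4 of 16 mitochondrial genes, against 24.1% of all tested genes, and with TGF-β1 lower in 1 and 3 genes, against 23.3%; in either direction this held for 26 of the 38 genes, against 47.4%. The median log2 fold change, TGF-β1 over none, was 0.19 for the cytosolic genes and 0.06 for the mitochondrial genes, beside -0.01 over all tested genes. With scaling by library totals alone, which moved the median of all genes by -0.12, the cytosolic median stayed positive at 0.066 with 8 genes higher and 3 lower, and the mitochondrial median turned to -0.062 with 0 higher and 6 lower (CARS2, PARS2, TARS2, WARS2, FARS2 and LARS2). That scaling called 2019 of all 17215 tested genes higher and 5354 lower. Their median was -0.13, below that of either compartment.

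**Figure D1:**
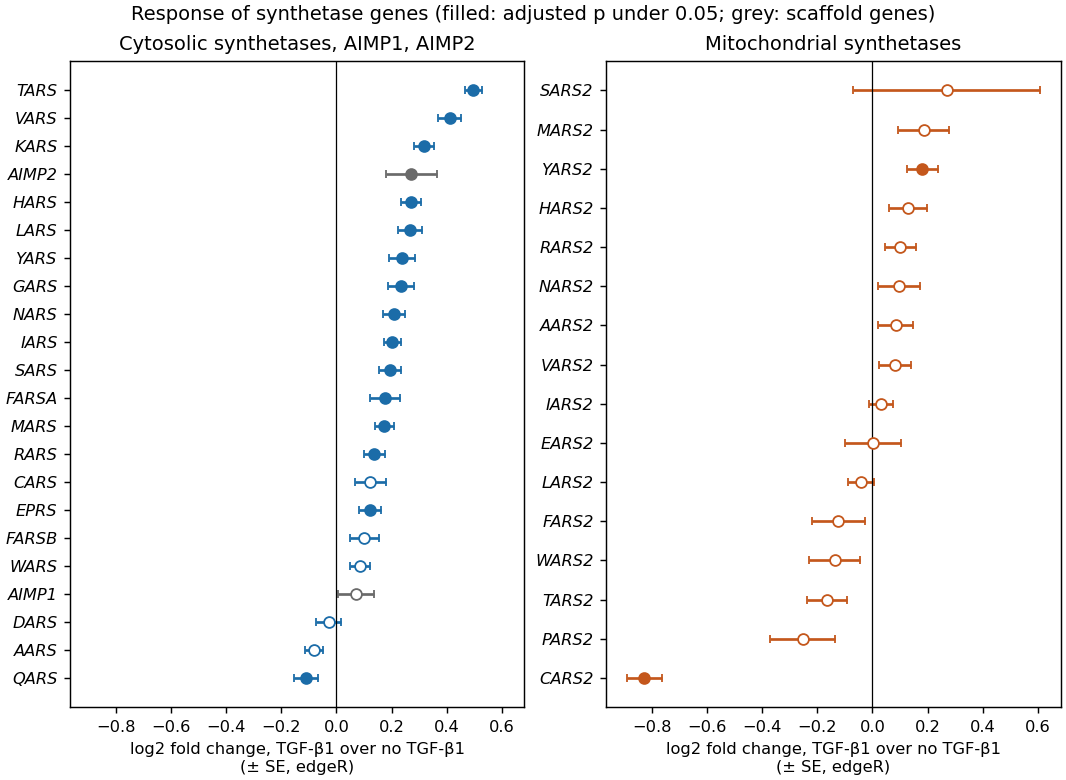
Log2 fold change of each gene (TGF-β1 over no TGF-β1, x axis, ± SE) for the 20 cytosolic synthetases with AIMP1 and AIMP2 (left, scaffold genes in grey) and the 16 mitochondrial synthetases (right); filled points passed edgeR's test at an adjusted p under 0.05. In the left panel 14 cytosolic genes are filled to the right of 0 with TMM scaling, and 8 with library totals alone; in the right panel CARS2 lies apart from the others at -0.83.

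The strongest rise was that of TARS, the threonine enzyme (ENSG00000113407, chromosome 5, 33440696 to 33469539, plus strand, hg38). It was measured at 608.7, 626.3 and 609.6 CPM in the TGF-β1 libraries, against 445.9, 426.7 and 435.0 CPM in the libraries without TGF-β1. Every TGF-β1 library lay far above every untreated one, by a log2 fold change of 0.50 ± 0.03 (SE; edgeR adjusted p = 7.06e-18), a 1.41-fold rise. TARS was also the most abundant synthetase transcript per unit length in both groups, with 104.6 ± 1.58 FPKM with TGF-β1 and 74.0 ± 1.82 FPKM without (SD, n = 3 each). VARS, the valine enzyme, which binds the elongation factor complex that receives charged tRNAs (ENSG00000204394, chromosome 6, 31777518 to 31795953, minus strand), had 139.9, 139.0 and 134.3 CPM with TGF-β1 and 105.4, 105.8 and 99.5 CPM without. Its groups were again well apart, with a log2 fold change of 0.41 ± 0.04 (adjusted p = 2.83e-11).

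The lysine enzyme KARS, 1 of the enzymes that serve both cytosol and mitochondria, had 214.7, 229.7 and 232.5 CPM with TGF-β1 and 180.7, 179.8 and 183.0 CPM without, a log2 fold change of 0.32 ± 0.04 (adjusted p = 8.20e-10). GARS, the glycine enzyme and the other one with both destinations, had 102.8, 94.1 and 109.2 CPM with TGF-β1 and 88.9, 85.6 and 85.6 CPM without. The GARS libraries with TGF-β1 were more spread than those without, yet did not overlap them (0.23 ± 0.05, adjusted p = 8.83e-05). LARS, the leucine enzyme that also acts as a leucine sensor for mTORC1, rose by 0.27 ± 0.04, the histidine enzyme HARS by 0.27 ± 0.04 and the tyrosine enzyme YARS by 0.24 ± 0.05. The remaining genes that rose were NARS for asparagine (0.21), IARS for isoleucine (0.20), SARS for serine (0.19), FARSA, the alpha subunit of the phenylalanine enzyme (0.18), MARS for methionine (0.17), RARS for arginine (0.14) and EPRS, a single protein that charges both glutamate and proline tRNAs (0.12). IARS had 451.3, 449.5 and 450.8 CPM in TGF-β1 libraries and 386.2, 390.0 and 397.8 CPM in untreated ones, a wide gap beside the small spread within each group.

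Of the cytosolic rises, those of EPRS and FARSA depended most on single libraries and on scaling, but others were also lost in some settings. RARS and SARS passed in 15 of 17 alternative settings, with values as low as 0.018 and 0.075. MARS, NARS and GARS passed in 16 of 17, with values as low as 0.055, 0.090 and 0.12. EPRS had 128.7, 138.3 and 132.5 CPM with TGF-β1, against 125.2, 123.0 and 118.8 CPM without, with an adjusted p of 0.0133 in edgeR's test. It did not pass when untreated replicate 3 (0.10, adjusted p = 0.0990) or TGF-β1 replicate 2 (0.10, adjusted p = 0.0923) was left out, and it passed in 12 of 17 alternative settings. FARSA owed part of its rise to TGF-β1 replicate 2, at 75.0 CPM beside 64.3 and 65.7 CPM in the other TGF-β1 libraries and 58.5, 61.5 and 61.6 CPM in untreated ones. The FARSA value was 0.11 without TGF-β1 replicate 2 (adjusted p = 0.166) and 0.15 without untreated replicate 1 (adjusted p = 0.0617), and FARSA passed in 10 of 17 alternative settings. FARSB, the beta subunit of the same enzyme, had a log2 fold change of 0.10 ± 0.05 and did not pass the test (adjusted p = 0.134).

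Glutamine's enzyme QARS was the only cytosolic synthetase gene called lower, and its groups overlapped: 148.0, 158.9 and 138.2 CPM with TGF-β1, against 153.5, 168.6 and 157.9 CPM without. The log2 fold change was -0.11 ± 0.04 with an adjusted p of 0.0468 in edgeR's test. The call was lost without TGF-β1 replicate 3 (-0.06, adjusted p = 0.393), TGF-β1 replicate 1 (-0.10, adjusted p = 0.120), untreated replicate 2 (-0.07, adjusted p = 0.239) or untreated replicate 3 (-0.12, adjusted p = 0.0656), and it was made in 8 of 17 alternative settings, whose adjusted p ran from 3.87e-05 to 0.393. AARS, the alanine enzyme, had 227.6, 219.2 and 224.9 CPM with TGF-β1, against 235.3, 233.5 and 241.2 CPM without. All AARS libraries with TGF-β1 lay below all those without, but the difference of -0.08 ± 0.03 did not pass the test (adjusted p = 0.0562); it passed in 4 of 17 alternative settings, among them without untreated replicate 2 (-0.09, adjusted p = 0.0462) and with library totals alone (-0.20, adjusted p = 4.58e-06). The cysteine enzyme CARS (0.12, adjusted p = 0.0783), WARS, the tryptophan enzyme whose gene is known to be induced by interferon (0.09, adjusted p = 0.0596), and the aspartate enzyme DARS (-0.03, adjusted p = 0.681) did not pass either. WARS passed without TGF-β1 replicate 1 (0.10, adjusted p = 0.0326).

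**Figure D2:**
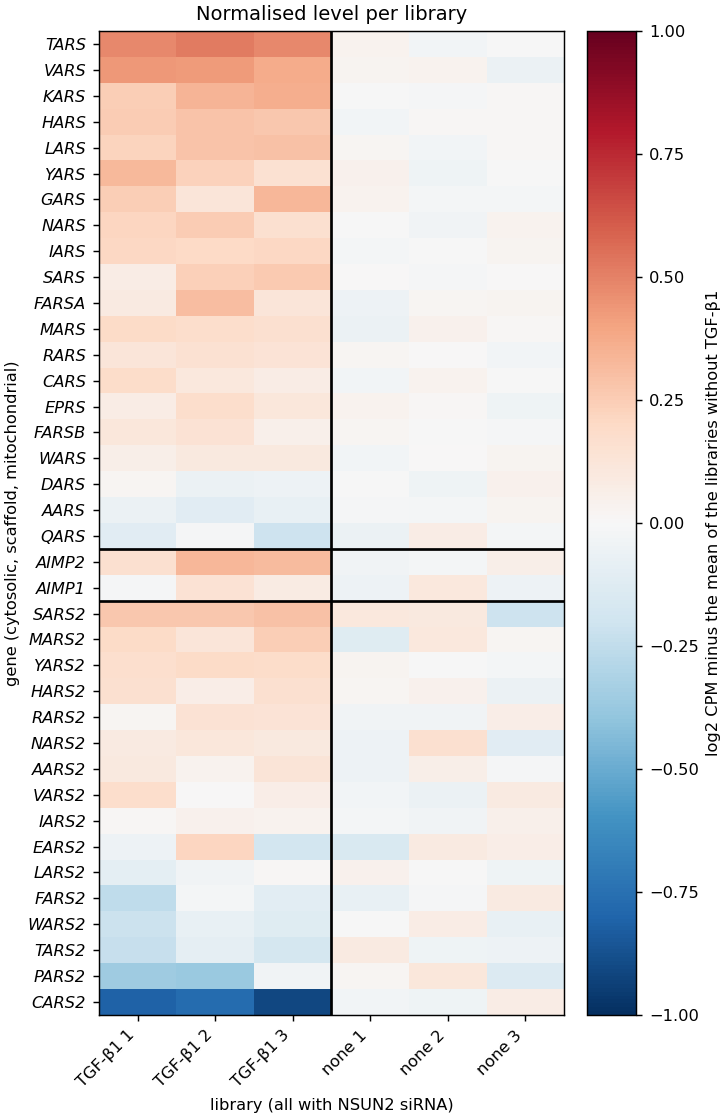
Level of each gene in each library as log2 CPM minus that gene's mean over the 3 libraries without TGF-β1 (colour; rows are cytosolic, scaffold and mitochondrial genes, ordered by fold change within each block; columns are the 3 TGF-β1 and then the 3 untreated libraries, TMM scaling). TARS and VARS are the deepest red in all 3 TGF-β1 columns, and CARS2 is the only row that is deep blue in all 3. With library totals alone the cytosolic median is 0.066 and the mitochondrial median -0.062, beside -0.13 over all tested genes.

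CARS2, the mitochondrial cysteine enzyme, which is also known to form cysteine persulfides, showed the greatest change of all 38 genes, and it was a fall (ENSG00000134905, chromosome 13, 110641412 to 110713603, minus strand). It had 32.6, 33.5 and 30.4 CPM in TGF-β1 libraries, against 56.0, 55.3 and 60.2 CPM in untreated libraries. The groups were widely separated, and CARS2 fell by 0.83 ± 0.06 on the log2 scale (edgeR adjusted p = 8.62e-15), to 0.564 times its untreated level. The call was made in each of the 17 alternative settings, with values from -0.95 to -0.66. Per unit length CARS2 was at 2.99 ± 0.143 FPKM with TGF-β1 and 5.30 ± 0.243 FPKM without (SD, n = 3 each), so that it stood below CARS, at 5.34 and 4.89 FPKM, with TGF-β1 and above it without.

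Of the other mitochondrial genes only YARS2, the tyrosine enzyme, passed the test. It had 52.8, 53.6 and 53.5 CPM with TGF-β1 and 47.9, 46.8 and 46.3 CPM without, a rise of 0.18 ± 0.06 (adjusted p = 0.00837) with no overlap between the groups. Its call was lost with upper-quartile factors (0.14, adjusted p = 0.0509) and with library totals alone (0.06, adjusted p = 0.403). PARS2, the proline enzyme, had 9.50, 9.42 and 11.9 CPM with TGF-β1, against 12.3, 13.2 and 11.1 CPM without. TGF-β1 replicate 3 lay within the untreated range, and the value of -0.25 ± 0.12 did not pass the test (adjusted p = 0.0900). It passed in 3 of 17 alternative settings: without that library (-0.37, adjusted p = 0.0262), with library totals alone (-0.37, adjusted p = 0.00985) and with upper-quartile factors (-0.30, adjusted p = 0.0433). TARS2, for threonine, had a value of -0.17 ± 0.07 (adjusted p = 0.0638) with every TGF-β1 library below every untreated one, which is the opposite sign to the rise of its cytosolic counterpart TARS. TARS2 passed in 3 of 17 alternative settings: with a minimum of 1 CPM in 3 libraries (-0.17, adjusted p = 0.0482), with library totals alone (-0.28, adjusted p = 0.00109) and with upper-quartile factors (-0.21, adjusted p = 0.0164).

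The other 12 mitochondrial genes lay between -0.14, for the tryptophan enzyme WARS2, and 0.27, for the serine enzyme SARS2, and none passed the test with TMM scaling and all libraries. RARS2, for arginine, passed without TGF-β1 replicate 1 (0.14, adjusted p = 0.0496), beside 0.10 ± 0.06 with all libraries. EARS2, the glutamate enzyme that also loads glutamate onto the mitochondrial glutamine tRNA, for which no separate mitochondrial glutamine enzyme is known, was at 0.00 ± 0.10. IARS2, the most abundant of the mitochondrial genes by CPM, had 97.9, 100.4 and 99.8 CPM with TGF-β1 and 96.1, 95.0 and 100.6 CPM without. These IARS2 libraries overlapped, and the value of 0.03 ± 0.04 had an adjusted p of 0.612.

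SARS2 was measured at 32, 37 and 34 counts with TGF-β1 and at 36, 35 and 26 counts without, too few to resolve a change of the size seen in the cytosolic genes (0.27 ± 0.34). In GENCODE release 29, 57.0% of its exonic bases lie under exons of other genes, and the sources used here do not say how reads there were assigned. The figures were 22.0% for VARS2, under GTF2H4 on the same strand, 28.9% for AIMP2, under EIF2AK1 on the opposite strand, and 13.3% for MARS, largely under ARHGAP9 and DDIT3 on the opposite strand. The share was 3.12% for CARS2 and 0% for TARS and VARS. Use of strand in the counting is not stated, so reads of overlapping opposite-strand genes cannot be told apart.

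Depth differed between the compartments. Cytosolic genes had 1378 to 17949 counts per library and standard errors of 0.03 to 0.06 on the log2 scale, and mitochondrial genes had 26 to 3004 counts and standard errors of 0.04 to 0.34. Within a band of 40 to 120 CPM, chosen after the values were seen, 4 of 7 cytosolic genes rose and 0 fell (median 0.18), and 1 of 6 mitochondrial genes rose and 1 fell (median 0.06), with median standard errors of 0.05 and 0.06. Over all tested genes, at any level, 20.2% were higher and 18.7% lower, so the mitochondrial counts lie near these shares.

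**Figure D3:**
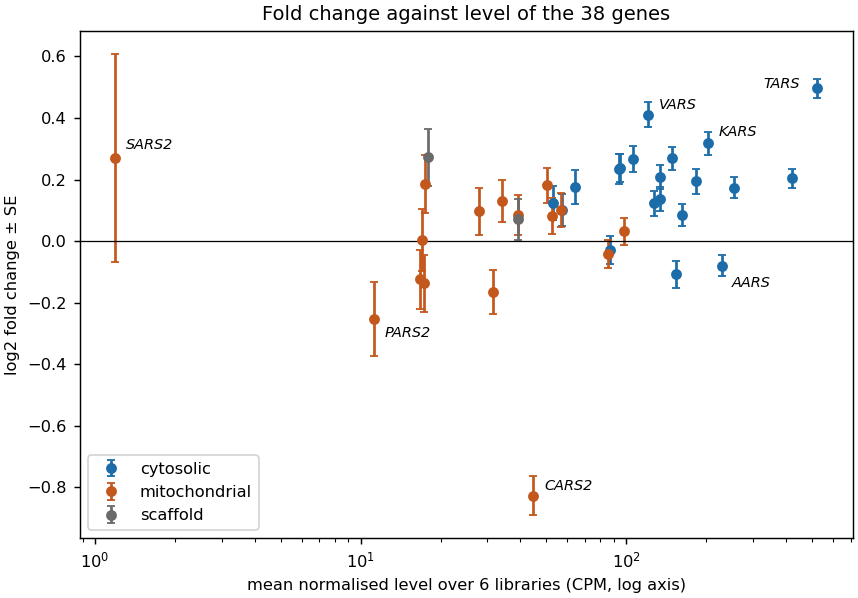
Log2 fold change (y axis, ± SE, TGF-β1 over no TGF-β1, TMM scaling) against the mean level of each of the 38 genes over all 6 libraries (x axis, CPM, logarithmic). Error bars widen to the left, where the mitochondrial genes lie. Between 40 and 120 CPM, where both kinds occur, the medians are 0.18 for 7 cytosolic and 0.06 for 6 mitochondrial genes. With library totals alone the medians of all 20 and all 16 genes are 0.066 and -0.062, beside -0.13 over all tested genes.

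The pools as a whole can be compared per unit length from the authors' deposited FPKM. The 20 cytosolic genes summed to 662.0, 678.9 and 670.0 FPKM in TGF-β1 libraries, against 582.6, 579.9 and 583.7 FPKM in untreated ones. The 16 mitochondrial genes summed to 143.3, 147.0 and 148.7 FPKM with TGF-β1, against 142.5, 143.9 and 143.1 FPKM without. The cytosolic sums did not overlap between groups, whereas 1 TGF-β1 library lay within the untreated range of the mitochondrial sums. Their ratio, which no scaling between libraries can alter, was 4.62, 4.62 and 4.51 with TGF-β1 and 4.09, 4.03 and 4.08 without. As a share of all counts, with no scaling at all, the cytosolic genes took 0.345% ± 0.00302 with TGF-β1 and 0.324% ± 0.000789 without, and the mitochondrial genes 0.0572% ± 0.000822 with TGF-β1 and 0.0632% ± 0.000418 without (SD, n = 3 each). The library sizes behind the FPKM were 0.984 to 0.987 times the totals with TGF-β1 and 1.070 to 1.075 times without. In TMM-scaled CPM the mitochondrial genes summed to 596 ± 7.76 with TGF-β1 and 607 ± 4.36 without (SD). The mean mitochondrial sum was thus higher with TGF-β1 per unit length, and lower in counts with or without TMM scaling. TMM factors were 0.957 to 0.963 with TGF-β1 and 1.041 to 1.043 without. They differed between the groups in the same direction, and to a similar degree, as the library sizes behind the FPKM. FPKM also divides by gene length, which CPM does not.

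**Figure D4:**
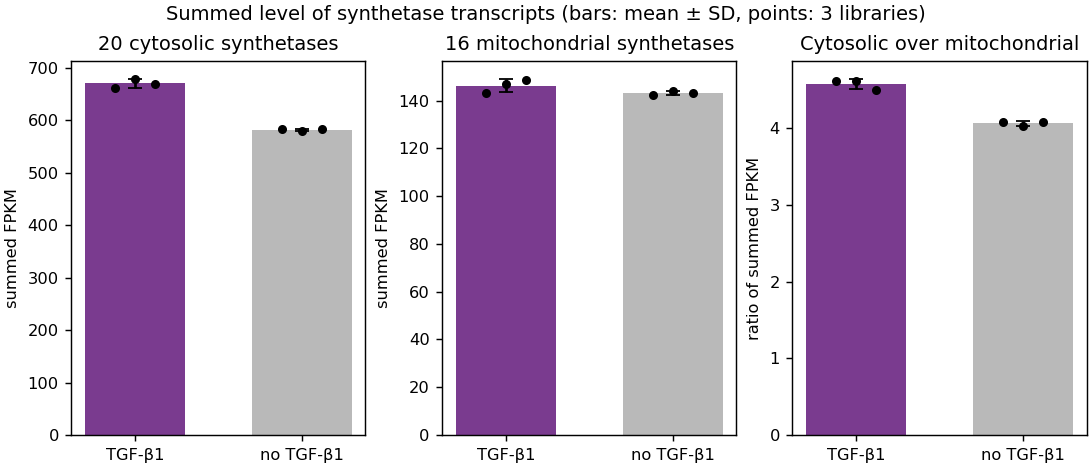
Summed FPKM (y axis) of the 20 cytosolic synthetase genes (left) and the 16 mitochondrial ones (middle) and the ratio of the sums (right), in TGF-β1 and untreated libraries; bars are means, error bars SD, points the 3 libraries of each group. The ratio is 4.51 to 4.62 in TGF-β1 libraries and 4.03 to 4.09 in untreated ones.

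In order of FPKM, TARS was followed with TGF-β1 by IARS (59.2 ± 0.192), KARS (54.0 ± 2.33), SARS (49.8 ± 3.51) and AARS (48.4 ± 0.964), and without TGF-β1 by IARS (51.3 ± 0.697), AARS (51.1 ± 0.856), SARS (43.4 ± 0.295) and KARS (43.2 ± 0.396; SD, n = 3 each). In each group KARS and SARS lay within their spread of each other, as did SARS and AARS with TGF-β1 and IARS and AARS without. SARS2 was last in both groups, with 0.391 ± 0.00436 FPKM with TGF-β1 and 0.323 ± 0.0388 FPKM without, below EARS2 at 2.89 ± 0.408 and 2.88 ± 0.254 FPKM. This rank rests on counts as deposited and may not reflect the level of the SARS2 transcript. Of its exonic bases 57.0% lie under other genes, 46.2% under a single gene on the same strand, AC011455.2. That gene had 0 counts in every TGF-β1 library and 0, 2 and 0 counts in the untreated ones. The effect of the overlap on the SARS2 counts was not tested.

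Ratios within a pair of enzymes for the same amino acid give the comparison of compartments amino acid by amino acid, free of scaling. For 17 pairs the log2 ratio of cytosolic to mitochondrial counts was taken in each library and tested with an exact two-sided permutation test, in which 3 against 3 libraries cannot go below p = 0.10. Cysteine showed the greatest shift: CARS over CARS2 stood at 0.82, 0.70 and 0.81 with TGF-β1 and at -0.18, -0.10 and -0.25 without, so the cytosolic transcript had more counts than the mitochondrial one in the TGF-β1 libraries and fewer in the untreated libraries (difference 0.95, exact p = 0.10). For threonine, TARS over TARS2 stood at 4.42, 4.32 and 4.37 with TGF-β1 and at 3.65, 3.72 and 3.75 without (difference 0.66, exact p = 0.10).

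Smaller shifts toward the cytosolic gene, with groups apart, were seen for EPRS over PARS2 (0.38), VARS over VARS2 (0.33), LARS over LARS2 (0.31), FARSA and FARSB over FARS2 (0.30 and 0.23), WARS over WARS2 (0.22), IARS over IARS2 (0.17) and HARS over HARS2 (0.14). Alanine went the other way: AARS over AARS2 averaged 2.47 ± 0.03 with TGF-β1 and 2.64 ± 0.07 without (SD, n = 3 each; difference -0.17). For each of these the exact p was the smallest possible, 0.10, and 0.155 after adjustment over the 17 pairs. The groups overlapped for methionine (-0.01), arginine (0.04), tyrosine (0.06), serine (-0.09), asparagine (0.11) and EPRS over EARS2 (0.13), with exact p from 0.40 to 0.80; differences of this size could not be resolved.

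**Figure D5:**
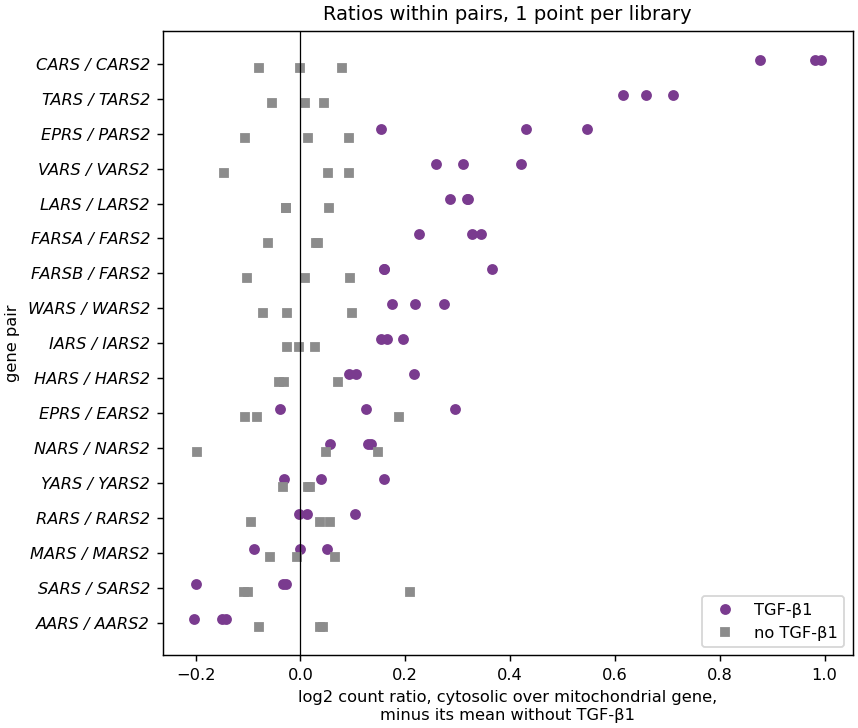
Log2 count ratio of the cytosolic to the mitochondrial gene of each pair, minus the pair's mean without TGF-β1 (x axis), with 1 point per library (purple circles, TGF-β1; grey squares, no TGF-β1). The CARS over CARS2 and TARS over TARS2 rows stand furthest to the right, by 0.95 and 0.66, and the AARS over AARS2 row lies to the left of 0 by 0.17.

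The genes were also grouped by structure and by complex, again beside 20.2% of all tested genes higher and 18.7% lower. Class I enzymes, which share a nucleotide-binding fold, rose in 7 of 18 cases and fell in 2 (median 0.11), and class II enzymes, built on an unrelated fold, rose in 7 of 17 cases and fell in 0 (median 0.13); EPRS, which joins an enzyme of each class, was counted apart. Among cytosolic genes alone, 6 of 9 of class I and 7 of 10 of class II rose. Of 10 genes of the multi-synthetase complex 7 rose and 1, QARS, fell (median 0.16), and of 12 cytosolic synthetase genes outside it 8 rose and 0 fell (median 0.20). Of the scaffold genes, AIMP2, whose protein holds the complex together, had 18.1, 20.4 and 20.2 CPM with TGF-β1 and 15.8 to 16.8 CPM without (0.27 ± 0.09, adjusted p = 0.0155). AIMP2 did not pass without untreated replicate 1 (0.25, adjusted p = 0.0588), untreated replicate 2 (0.26, adjusted p = 0.0507), TGF-β1 replicate 2 (0.24, adjusted p = 0.0655) or TGF-β1 replicate 3 (0.25, adjusted p = 0.0550). AIMP1, which is also known as the precursor of a secreted cytokine, was at 0.07 ± 0.07 (adjusted p = 0.439).

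Promoter windows of 250 bases before to 50 bases after the start, from RefSeq on GRCh38.p14, were at hand for 32 of the 38 genes; those of DARS, LARS, VARS, YARS, AARS2 and VARS2 were not used here. The letters TGATGNAA, the core of the amino acid response element bound by ATF4 with a C/EBP partner, were searched on both strands. They were found in 6 of 16 cytosolic windows and 1 of 14 mitochondrial windows, beside 3.67% of 27305 windows of all genes. The 7 matches are shown with 10 bases on either side, read on the strand that carries the motif, since the cytosolic ones share every letter of the core and all but 1 also the next base. Capitals mark the match.
AARS (chr16:70289676-70289703, plus strand): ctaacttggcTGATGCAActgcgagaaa
CARS (chr11:3057408-3057435, plus strand): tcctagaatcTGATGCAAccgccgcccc
IARS (chr9:92293693-92293720, plus strand): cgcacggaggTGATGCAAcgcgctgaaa
MARS (chr12:57488054-57488081, minus strand): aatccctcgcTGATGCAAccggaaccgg
NARS (chr18:57621805-57621832, minus strand): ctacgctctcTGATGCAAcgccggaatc
TARS (chr5:33440957-33440984, minus strand): ctggaccagcTGATGCAAtcgaaaggcg
YARS2 (chr12:32756077-32756104, minus strand): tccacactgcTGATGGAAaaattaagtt

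Cytosolic genes rose both with and without a match in the window. Of the 6 cytosolic genes with the motif, TARS, IARS, MARS and NARS rose, CARS did not pass the test and AARS had a negative value, with a median of 0.19. Of the 10 cytosolic genes with a window but no match, 7 rose and 1 fell, with a median of 0.16. Over all tested genes 20.2% were higher and 18.7% lower. Sequence outside the windows was not searched, and a part of the motif in the rises was not tested. The window of TARS, the gene with the strongest rise, is given whole (chr5:33440715-33441014, plus strand), with the motif, here in its reverse complement, in capitals.
TARS: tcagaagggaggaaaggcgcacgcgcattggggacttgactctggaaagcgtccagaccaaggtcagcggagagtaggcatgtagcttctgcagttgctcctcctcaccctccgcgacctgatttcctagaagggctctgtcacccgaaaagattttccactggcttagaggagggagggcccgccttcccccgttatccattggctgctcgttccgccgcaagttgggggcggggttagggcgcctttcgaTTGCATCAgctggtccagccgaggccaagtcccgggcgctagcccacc
The E-box letters CACGTG, which read the same on both strands and are bound by MYC among other factors, were found in 1 of 16 cytosolic windows (IARS) and 3 of 14 mitochondrial ones (CARS2, EARS2 and MARS2), beside 7.43% of all windows. The IARS window held both motifs, at separate positions, and their bases overlapped in none of these windows.

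HARS and HARS2, the cytosolic and mitochondrial histidine enzymes, are transcribed in opposite directions from RefSeq starts that lie 85 bases apart, so their RefSeq promoter windows share 184 bases. In GENCODE release 29, whose positions the count table matches, the 5′ ends reach further and the genes overlap by 437 bases. The shared stretch (chr5:140691321-140691504, plus strand) is printed with the bases between the starts in capitals, HARS leaving to the left and HARS2 to the right.
HARS and HARS2: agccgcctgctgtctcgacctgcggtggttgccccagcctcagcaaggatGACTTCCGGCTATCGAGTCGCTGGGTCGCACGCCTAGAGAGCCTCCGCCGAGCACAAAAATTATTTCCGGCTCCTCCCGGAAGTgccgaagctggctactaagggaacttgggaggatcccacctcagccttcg
Counted over the whole gene, HARS had 160.8, 164.0 and 162.6 CPM with TGF-β1, against 132.4, 136.2 and 135.7 CPM without (0.27 ± 0.04, adjusted p = 7.39e-08). Use of the starts themselves was not measured. HARS2 had 36.5, 34.1 and 36.5 CPM with TGF-β1, against 33.0, 33.7 and 31.2 CPM without, and did not pass the test (0.13 ± 0.07, adjusted p = 0.138). Both genes had all TGF-β1 libraries above all untreated ones. In GENCODE release 29 exons of HARS2 cover 5.56% of the exonic bases of HARS, and exons of HARS cover 11.7% of those of HARS2, on opposite strands.

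Genes that act with the synthetases were counted in the same fit. ATF4 and its targets outside the synthetases were divided, with 13 of 34 tested genes higher and 10 lower (38.2% and 29.4%, beside 20.2% and 18.7% of all tested genes; median 0.01). The largest called changes among those at 5 CPM or more were these: CBS, which makes cystathionine from homocysteine, rose by 1.42, the mitochondrial folate enzyme ALDH1L2 rose by 1.04, and SLC7A11, the cystine importer, fell by 1.23 on the log2 scale, with 16.9, 20.6 and 18.3 CPM in TGF-β1 libraries and 45.7, 45.9 and 40.1 CPM in untreated ones. ATF4 itself, named after its value was seen, rose by 0.33, with 231.9, 240.4 and 237.9 CPM with TGF-β1 and 187.1, 191.8 and 187.4 CPM without. ASNS, also named after its value was seen, has 44.6% of its exonic bases under another gene. It averaged 0.557 CPM with TGF-β1 and 0.744 CPM without and did not pass the test. Of 8 eIF2α kinases and their regulators 2 rose and 3 fell, 25.0% and 37.5% (median 0.01); the phosphatase subunit PPP1R15A, which is in both lists, fell by 0.45 and the kinase EIF2AK2 by 0.18, while PPP1R15B rose by 0.19.

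Of 12 further tRNA charging genes 1 rose and 0 fell, 8.33% and 0% beside the same shares of all tested genes (median 0.02). It was TARSL2, a second cytosolic threonine enzyme, with 12.2, 11.8 and 14.1 CPM with TGF-β1 and 7.16, 9.22 and 9.39 CPM without (0.57 ± 0.12, adjusted p = 2.28e-04), so that both cytosolic threonine genes rose. QRSL1, GATB and GATC, the subunits that convert the product of EARS2 into charged glutamine tRNA, named after their values were seen, were at 0.05, -0.01 and 0.01 and did not pass the test.

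Beside 20.2% of all tested genes higher and 18.7% lower, cytosolic initiation and elongation factors rose in 9 of 17 tested cases, 52.9%, and fell in 0 (median 0.14), led by EIF5A (0.39), EIF4G1 (0.34) and EEF1B2 (0.29). EEF1G and EIF4A1, named after their values were seen, have 99.9% and 48.6% of their exonic bases under other genes. EEF1G had 0 counts and was not tested, and EIF4A1, at 10.7 CPM with TGF-β1 and 9.53 CPM without, did not pass. Mitochondrial translation factors rose in 2 of 10 cases, MTRF1L (0.19) and TUFM (0.11), and fell in 1, GFM2 (-0.16; median 0.10), a share near that of all tested genes for rises and below it for falls. Genes for transcription, end processing and export of tRNAs rose in 10 of 26 cases, 38.5%, and fell in 1 (median 0.11). Subunits of RNA polymerase III, which transcribes tRNA genes, lay at both ends: POLR3D rose by 0.67, whereas POLR3G, a subunit tied to proliferating and undifferentiated cells, fell by 0.50; POP1, of the RNase P that trims tRNA 5′ ends, rose by 0.52.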

How the data were processed

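RNA was sequenced in 6 libraries, grouped by their titles. The tools named in the submitters' processing notes are fastp and HISAT2 2.2.1, with the hg38 build; no source used here names the counting tool or its strand setting. The deposited counts are whole reads per gene, not normalized; the authors' deposited FPKM values are scaled per kilobase and to a library size of their own. Each file also holds 6 per-sample columns that match no sample here and were not used. Gene positions and strands of 58724 of the 58735 identifiers matched GENCODE release 29.

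Counts were tested with edgeR 4.0.16 in R 4.3.3 (filterByExpr with a minimum count of 10 and total of 15, TMM factors, robust quasi-likelihood fit, group as the only term, 4 residual degrees of freedom, two-sided, Benjamini-Hochberg over 17215 genes). CPM use TMM-scaled library sizes; the SE is the absolute log2 fold change over the square root of F. Pair ratios used a prior count of 0.5. Alternatives, with limma 3.58.1 and DESeq2 1.42.0, are in the closing section. The script was tested on simulated data. The 38 genes and the lists were chosen with earlier results of these data known; any of the 38 may be named, and of each list up to 3 called genes, those that changed most among genes averaging 5 CPM or more.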

Additional observations from a re-analysis of the deposited data

How the results depend on the processing

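Of 644 gene values over 17 alternative settings, 575 kept their direction and side of the threshold, 35 lost the call, 16 gained one and 18 changed sign, of which 0 were called with either setting. With library totals alone 9 genes had a negative value in place of a positive one: AARS2 (-0.034), AIMP1 (-0.048), EARS2 (-0.12), FARSB (-0.018), IARS2 (-0.087), NARS2 (-0.022), RARS2 (-0.017), VARS2 (-0.038) and WARS (-0.034). IARS2 was at -0.013 with upper-quartile factors. EARS2, at 0.00 with all libraries and TMM factors, was also at -0.042 with those factors, -0.0026 with the 1 CPM minimum, -0.0018 and -0.00054 in the FPKM tests with pseudocounts of 0.1 and 1, -0.0028 with the replicate block, and ran from -0.11 to 0.092 when 1 library was left out, negative without untreated replicate 1 (-0.073) or TGF-β1 replicate 2. TARS, VARS, KARS, HARS, LARS, IARS, YARS and CARS2 were called in all 17. The difference of medians, cytosolic minus mitochondrial, was 0.13 and stayed within 0.11 to 0.16. Library totals alone gave 2019 higher and 5354 lower genes over the whole table (3471 and 3226 with TMM factors), 8 higher and 3 lower cytosolic and 0 higher and 6 lower mitochondrial genes, with medians of 0.066 and -0.062. Upper-quartile factors gave 2 lower cytosolic, 0 higher and 3 lower mitochondrial genes, with medians of 0.14 and 0.012. A minimum of 1 CPM in 3 libraries gave 2 lower genes in each compartment. The DESeq2 Wald test, limma-voom and limma on log2 FPKM (pseudocount 1 or 0.1, mean FPKM of at least 0.5, or no filter) gave 0 lower cytosolic genes; without a filter the FPKM test gave 1881 lower genes in all. The cause was not tested. Leaving out 1 library at a time gave 3089 to 3366 higher and 2850 to 3009 lower genes in all, 12 to 15 higher and 0 to 1 lower cytosolic genes with a median of 0.17 to 0.20, and 1 to 2 higher and 1 to 2 lower mitochondrial genes with a median of 0.04 to 0.08.

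With the replicate number as a block 14 cytosolic genes were higher, as without it. The numbers do not pair the samples: deviations of libraries with the same number correlated at -0.00, 0.01 and -0.01, and 2 of 6 libraries correlated best with their own number. Mitochondrial genes, at 26 to 3004 counts, limit what can be seen: the median standard error was 0.07 there and 0.04 in cytosolic genes.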
